A study of Homo sapiens with 6 samples.

Results

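The genes described are 258 protein-coding genes of human chromosome 8 that were measured together in SK-N-BE(2), an established neuroblastoma line of human origin. They are the protein-coding genes of the deposited table that start before position 135000000 on this chromosome (build hg38, GENCODE 29), near the end of the long arm, and average at least 3 FPKM over the 6 libraries. FPKM scales a gene's fragment count by its exon length and by the library's size. The table holds 32434 gene IDs, 1237 of them on chromosome 8, and 281 genes met the type, position and level limits. Of these, 23 were set aside by symbol, among them neurofilament, stathmin and mitochondrial ribosomal genes. The members were chosen by their FPKM values in these same 6 libraries, as genes jointly lower in the cells treated against MYT1 than in the controls, so their direction is a property of the choice and carries no test.

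The series holds 6 libraries of total RNA, 3 titled shNC with the genotype control and 3 titled shMYT1 with a genotype field that reads MYT1 knockout. MYT1 is a zinc-finger transcription factor gene of developing neurons, and the treatment text, the same on all 6, speaks instead of stable knockdown by lentivirus, with 24 h of infection and 48 h in puromycin. All 6 come from the same cell line, grown in RPMI medium with fetal bovine serum. No label states the hairpin sequences, the number of hairpins or whether the replicates were separate cultures, so the spread between libraries may be technical. In bulk libraries, fewer cells with a transcript and less transcript per cell cannot be told apart.

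The genes of a chromosome region form no pathway. Genes that lie close together usually share the number of DNA copies of their segment, while each has its own promoter and its own role. Whether the members, which lie on both arms, share a copy number is not known here. Neuroblastoma lines commonly carry gains, losses and rearrangements of whole chromosome arms, and SK-N-BE(2) is known for amplified MYCN on chromosome 2. Chromosome 8 encodes, among many others, the cohesin subunit RAD21, the DNA-dependent protein kinase PRKDC, subunits of the vacuolar proton pump, translation factors and the neural crest repressor SNAI2. DNA copy number was not measured in these libraries.

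The libraries held about 21080000 to 21680000 fragments in shNC and 18160000 to 20300000 in shMYT1, as recovered from the FPKM values and exon lengths. MYT1 itself stood at 5.73, 5.12 and 5.18 FPKM in the 3 shNC libraries and 4.20, 4.13 and 4.36 FPKM in the 3 shMYT1 libraries. All shMYT1 values were below all shNC values, a difference of -0.28 on the log2(FPKM + 1) scale (SE 0.051, limma adjusted p = 0.0102, exact two-sided permutation p = 0.1, the smallest that 3 against 3 allow). All 11 listed markers of sympathetic neuroblasts, the tyrosine hydroxylase gene TH among them, averaged at least 1 FPKM, with a summed level of 3080 to 3240 FPKM in shNC and 2680 to 2790 FPKM in shMYT1 and 4 genes past the threshold in each direction. Endothelial markers (4 analysed) and immune markers (3 analysed) all averaged under 1 FPKM, and none was at 0 in every library. The summed level of 7 fibroblast markers was 161 to 165 FPKM in shNC and 113 to 116 FPKM in shMYT1, with 3 lower and 2 higher past the threshold. That of 5 Schwann and glial markers was 17.8 to 19.1 FPKM in shNC and 27.1 to 27.8 FPKM in shMYT1, with 1 higher and 0 lower. The part of these markers and of the depth difference in the values that follow was not tested, other than that the members' median was -0.23 after all libraries were thinned to the same depth.

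Most of the 258 genes were lower in shMYT1 by a small amount. The median difference was -0.23 on the log2(FPKM + 1) scale, beside -0.005 over all 14106 tested genes. In linear terms the shMYT1 mean was lower than the shNC mean by a median of 16.3%, with quartiles at 22.5% and 10.1% lower. In all, 234 members were below 0 and 24 above it. A gene was called past the threshold at a Benjamini-Hochberg adjusted p under 0.05 in limma, fitted on all tested genes. Among the members 175 (67.8%) passed as lower, beside 1737 (12.3%) of all tested genes, and 6 (2.33%) passed as higher, beside 1683 (11.9%). The remaining 77 did not pass. In 201 members every shMYT1 library was below every shNC library, which held for 21.8% of all tested genes. The reverse held in 11 members, beside 20.5% of all tested genes. These counts describe the choice of members and are not evidence of the shift. Over protein-coding genes of at least 3 FPKM on the other chromosomes (8580 genes), where 13.4% passed as lower and 14.7% as higher, the median was -0.002. With each library rescaled to a common FPKM total, the calls over all tested genes were 2279 lower and 1307 higher, beside 1737 lower and 1683 higher as deposited, and the members' median was -0.26.

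The libraries of a group were close to each other in this measure. The members' median log2 difference from the shNC mean was 0.013, 0.004 and -0.019 in shNC replicates 1, 2 and 3. It was -0.243, -0.208 and -0.254 in shMYT1 replicates 1, 2 and 3. The 2 groups did not overlap, and the shMYT1 library nearest to the controls was replicate 2. The members were chosen for lower values in these same libraries, so this separation of the groups describes the choice. Over all tested genes the same median lay between -0.007 and 0.003 in every library. Measured from the mean of their own group, the libraries' medians over the members ranged from -0.021 to 0.023, and over all tested genes from -0.003 to 0.003. The members' summed level was 4610, 4611 and 4582 FPKM in shNC and 3910, 3981 and 3885 FPKM in shMYT1. This was 1.53 to 1.56% of all FPKM in the former and 1.27 to 1.3% in the latter.

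**Figure D1:**
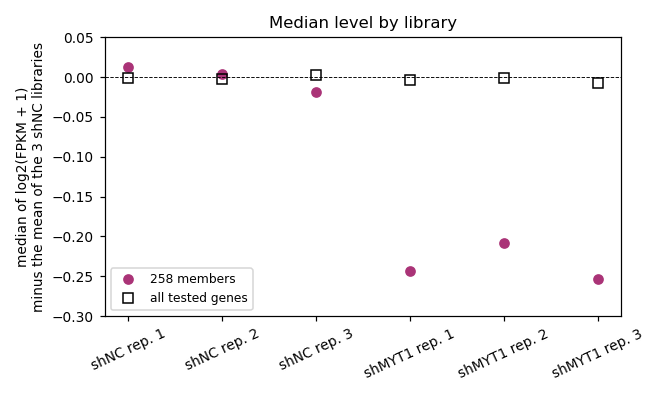
Median over genes of log2(FPKM + 1) minus the mean of the 3 shNC libraries, for each of the 6 libraries. Filled points are the 258 members and open squares all tested genes. The members of the 3 shMYT1 libraries sit between -0.254 and -0.208, and all other points lie within 0.02 of 0.

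The differences varied among members about as much as among other genes, around a lower median. Their SD over members was 0.18, beside 0.2 for protein-coding genes of at least 3 FPKM on the other chromosomes, the quartiles were -0.32 and -0.14, and the median standard error of a single gene's difference was 0.046. In 177 members (68.6%) the difference lay between -0.4 and -0.1, a band around the members' own median that describes their choice. Only 12 members were lower by more than 0.5, and 4 were higher by more than 0.3. FAM110B alone had less than 50% of its shNC mean in shMYT1. The size of the difference varied little with how strongly a gene was expressed. The 86 members of lowest level (3.00 to 7.09 FPKM) had a median of -0.22, the 86 in the middle (7.17 to 14.4 FPKM) -0.24 and the 86 of highest level (14.5 to 280.0 FPKM) -0.24. Across the 258 genes, which share libraries and are not independent, the difference correlated with log2 mean FPKM at r = -0.03 and rho = -0.07. It correlated with exon length at rho = 0.1. Genes on the plus strand (125) had a median of -0.24 and those on the minus strand (133) -0.21. Between 75 and 21125 fragments lay behind each member's value in a library, and for the median member the shallowest library held 881.

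**Figure D2:**
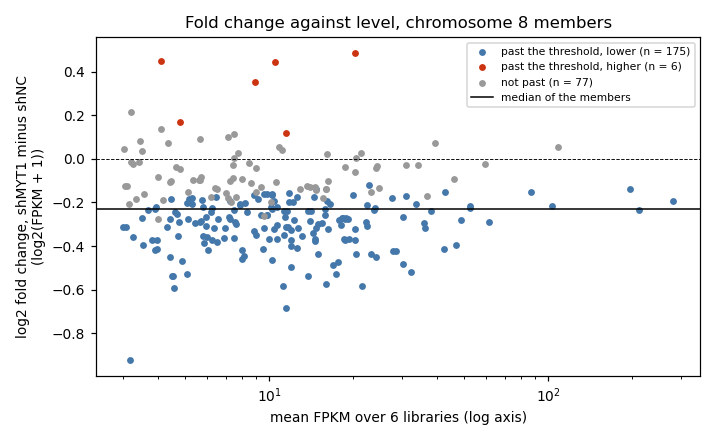
Log2 difference, shMYT1 minus shNC, of the 258 members against their mean FPKM on a log axis. Blue points (175) passed the threshold as lower, red points (6) as higher and grey points (77) did not pass. The solid line at -0.23 is the members' median, and points lie around it at every level.

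Counting cannot separate overlapping genes where no strand setting is stated. Of the members, 105 overlap an exon of an opposite-strand gene and 25 an exon of a same-strand gene, 121 in all. The 137 members with no such overlap had a median of -0.24 and the 121 with one -0.23. Reads of near-identical copies may also have been split. For 33 members GENCODE lists at least 1 pseudogene named after them. These had a median of -0.22, against -0.24 for the other 225.

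Along the chromosome the members' medians were below 0 from end to end of the stretch, by amounts that varied. The short arm holds 121 of them, with a median of -0.23, and the long arm 137, with a median of -0.25. On the short arm 78 were lower and 4 higher past the threshold. On the long arm 97 were lower and 2 higher. Of all tested genes 12.3% were lower and 11.9% higher. The members were chosen for their joint fall, so the counts and medians along the chromosome describe that choice. In steps of 10 Mb every median was below 0, from -0.34 between 0 and 10 Mb (10 members) to -0.16 between 10 and 20 Mb (21 members). The bins from 20 to 50 Mb had medians of -0.23, -0.24 and -0.23, and those from 50 Mb on ranged from -0.29 to -0.21. A running median over 21 neighbouring members stayed between -0.32 and -0.09. The longest run of neighbours all below 0 held 50 genes. Neighbouring members were otherwise little alike, with a correlation of 0.08 over the 257 neighbouring pairs, and position correlated with the difference at rho = -0.11. The 4 short-arm members that passed as higher, LZTS1, HR, LOXL2 and STC1, start between 20246165 and 23841915 (hg38). Of the 22 members that start within these bounds, which those genes set, 11 were lower past the threshold, and their median was -0.11.

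**Figure D3:**
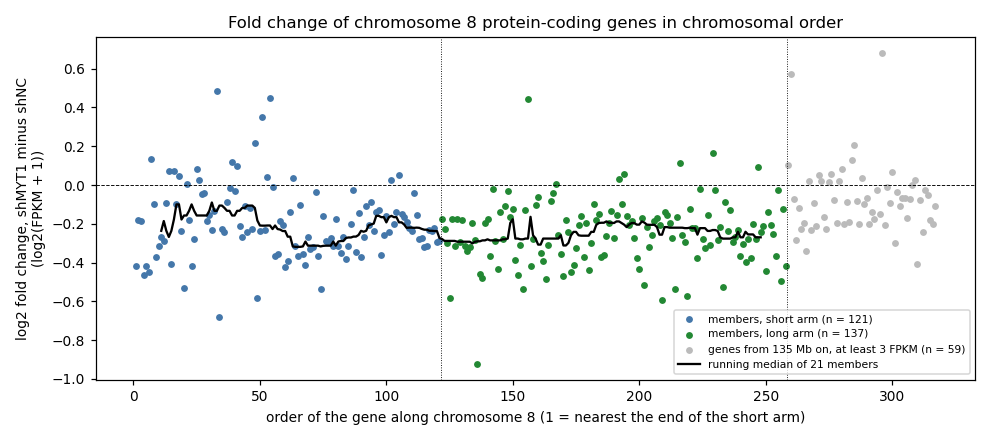
Log2 difference, shMYT1 minus shNC, of chromosome 8 protein-coding genes of at least 3 FPKM in their order along the chromosome. Blue and green points are members on the short (121) and long (137) arm, grey points the 59 genes beyond the position limit, the line a running median over 21 members, and dotted lines the centromere and the position limit. The running median stays between -0.32 and -0.09, and the grey points have a median of -0.09, at the upper end of that range. The position limit was chosen with earlier results of these data known.

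The limits were chosen with earlier results of these data known, so a contrast across the position limit describes that choice. At the position limit, the last members inside were EFR3A, PHF20L1 and ST3GAL1, with log2 differences of -0.50, -0.12 and -0.42. The first genes outside were KHDRBS3, COL22A1 and TRAPPC9, with 0.10, 0.57 and -0.07. COL22A1, a collagen gene, averaged 2.92 FPKM in the controls and 4.84 in shMYT1, and ST3GAL1, a sialyltransferase gene, 9.30 FPKM in the controls and 6.71 in shMYT1. Beyond that limit 71 protein-coding genes were tested, of which 14 (19.7%) were lower and 3 (4.23%) higher past the threshold, with a median of -0.09. Of all tested genes 12.3% were lower and 11.9% higher. Of the 71, 53 were below 0 and 18 above it. In 39.4% of them every shMYT1 library was below every shNC library, beside 21.8% of all tested genes. The count of lower calls beyond the limit was 23 with each library rescaled to a common FPKM total. It was 8 without shNC replicate 1, shNC replicate 3 or shMYT1 replicate 2, and 9 without shNC replicate 2. At the level limit, TMEM68, C8orf48 and PHF20L1 lay just inside at mean levels of 3.00, 3.03 and 3.05 FPKM. VCPIP1, BAALC and TBC1D31 lay just outside at 2.88, 2.88 and 2.99 FPKM. Their log2 differences were -0.31, 0.04 and -0.12 inside and -0.28, 0.22 and -0.25 outside.

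Other gene classes of the same stretch, which the rule leaves out, also had medians below 0. They were measured in the same libraries, and lower and higher calls were made in 12.3% and 11.9% of all tested genes. Of the 23 genes set aside by symbol, 16 were lower and 2 higher past the threshold (median -0.25). Of 53 protein-coding genes at 1 to under 3 FPKM, 16 (30.2%) were lower and 6 (11.3%) higher, with a median of -0.17. Of 105 tested genes of other types, mainly long noncoding RNAs and pseudogenes, 21 (20%) were lower and 4 (3.81%) higher, with a median of -0.22. Among the 76 of these that share no exon bases with another gene the median was -0.23, with 15 lower and 4 higher. The median percent difference of the means was -15.2% at 1 to under 3 FPKM and -19.6% for other types. It was -16.3% for the members, and the log2(FPKM + 1) scale understates differences of low genes. In fits without 1 library, the 16 lower calls at 1 to under 3 FPKM came to 7 when shNC replicate 1 was left out, to 9 for shNC replicate 2, to 9 for shMYT1 replicate 1 and to 8 for shMYT1 replicate 3. The 21 lower calls among other types were 12 without shNC replicate 1 and 12 without shMYT1 replicate 3. The most abundant gene of another type was SNHG6, a host gene of small nucleolar RNAs, at 78.7, 78.3 and 78.0 FPKM in the 3 shNC libraries and 58.7, 65.2 and 62.3 FPKM in the 3 shMYT1 libraries (limma adjusted p = 0.00197). Its exons overlap other genes on both strands. AC108449.2, a transcript inside an intron, was at 26.7, 26.4 and 25.8 FPKM in shNC and 18.7, 17.9 and 16.3 FPKM in shMYT1 (limma adjusted p = 0.000742). LSM12P1, a processed pseudogene, was at 25.3, 32.7 and 16.7 FPKM in shNC and 30.0, 22.1 and 30.0 FPKM in shMYT1, with groups that overlap widely (limma adjusted p = 0.65).

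By chromosome, the median over protein-coding genes of at least 3 FPKM was lowest for chromosome 8, at -0.21 over 340 genes. Of these, 60.3% were lower and 3.24% higher past the threshold. The 340 include the 258 members, which were chosen for their joint fall, so this rank describes the choice. The next lowest medians, of chromosomes 21 and 17, were both -0.05. Chromosome 13 stood on the other side at 0.22 over 138 genes, with 66.7% higher and 3.62% lower. The other 21 chromosomes analysed had medians from -0.05 to 0.03. A median near 0 does not exclude shifts of part of a chromosome. On chromosome 19 (529 genes, median 0.01) 36.3% were higher and 19.1% lower past the threshold, with an SD of 0.28. No test compared chromosomes.

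The members were sorted into 13 lists by role, which hold 204 of the 258. Every list had a median below 0, from -0.29 for neuronal genes to -0.14 for genes of the centrosome and cilium. The latter list holds only 6 members. It leaves out FAM110B, a centrosome-associated protein gene with the most negative difference of all members (-0.92), which is in no list. The 54 members in no list had a median of -0.24, with 35 lower and 1 higher past the threshold. For comparison, 12.3% of all tested genes passed as lower and 11.9% as higher. The lists run from transcription and translation to organelles, signalling and the cell surface.

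**Figure D4:**
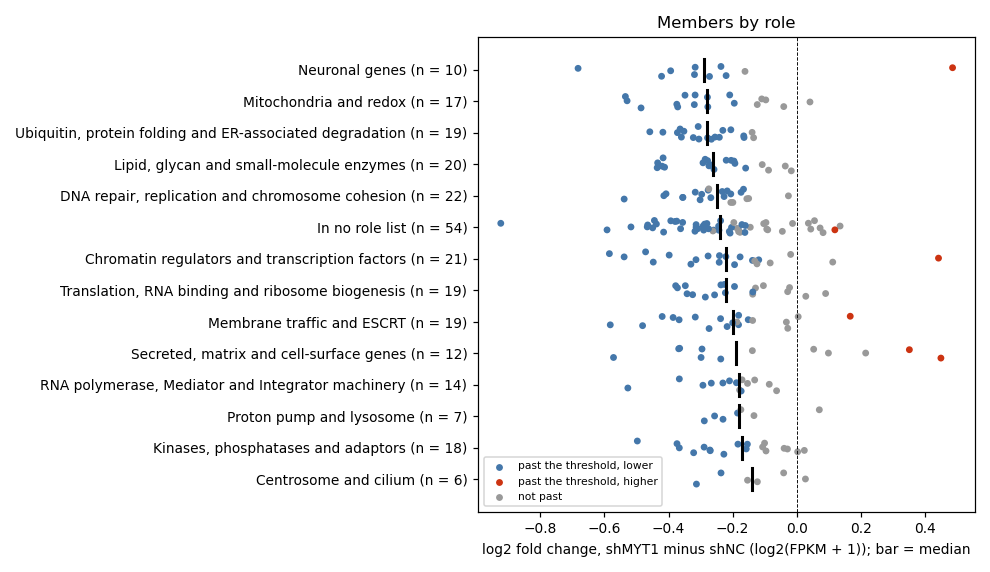
Log2 difference, shMYT1 minus shNC, of the 258 members by role list, with the number of members in each list. Points are genes, coloured by whether they passed the threshold as lower (blue), higher (red) or not at all (grey), and the black bar is the list's median, from -0.29 to -0.14. Red points appear in the lists of neuronal, chromatin, membrane traffic and matrix genes and among genes in no list.

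For RNA polymerase, Mediator and Integrator machinery, 8 of 14 members were lower past the threshold, 0 higher and 6 not past it, with a median log2 difference of -0.18. MED30, a subunit of the Mediator coactivator, was the lowest of the list at 20.2, 20.1 and 21.6 FPKM in shNC and 13.1, 14.4 and 14.5 FPKM in shMYT1. TCEA1, the elongation factor TFIIS that rescues stalled RNA polymerase II, was at 39.5, 41.2 and 38.5 FPKM in shNC and 32.0, 33.9 and 31.0 FPKM in shMYT1. In both genes the groups were well apart. POLR3D, a subunit of RNA polymerase III, averaged 24.1 FPKM in the controls and 20.7 in shMYT1. POLR2K, a subunit shared by the nuclear RNA polymerases, averaged 39.0 FPKM in the controls and 34.6 in shMYT1, and ENY2, of the SAGA and TREX-2 complexes, 24.5 FPKM in the controls and 21.9 in shMYT1. Neither passed the threshold, although their groups did not overlap. ELOC, which encodes elongin C and has 32 pseudogenes named after it, was nearest to 0 with 20.7 FPKM in the controls and 19.8 in shMYT1. The 3 Integrator subunits encoded here, which process small nuclear RNAs, were all lower past the threshold: INTS8 fell from 6.20 to 5.32 FPKM, INTS9 from 12.1 to 9.16 FPKM and INTS10 from 11.1 to 9.34 FPKM. They were singled out as subunits of 1 complex after their values were seen.

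Among chromatin regulators and transcription factors, 15 of 21 members were lower past the threshold, 1 higher and 5 not past it, with a median log2 difference of -0.22. SNAI2, a zinc-finger repressor of neural crest and mesenchymal cells, was at 25.3, 26.3 and 26.1 FPKM in the 3 shNC libraries and 19.5, 15.7 and 15.9 FPKM in the 3 shMYT1 libraries. Replicate 1 of shMYT1 lay above the other two, and all 3 lay below every control. ZNF704, the most abundant of the list, was at 28.1, 28.5 and 27.4 FPKM in shNC and 20.4, 20.6 and 19.8 FPKM in shMYT1. ATAD2, a bromodomain ATPase of dividing cells, averaged 21.01 FPKM in the controls and 17.2 in shMYT1. CCAR2, an inhibitor of the deacetylase SIRT1, averaged 23.8 FPKM in the controls and 21.9 in shMYT1, a small difference whose call was lost in 8 of 16 alternative fits. HMBOX1, a homeobox protein that binds telomeric repeats, averaged 16.5 FPKM in the controls and 11.01 in shMYT1. MSC, which encodes the bHLH repressor musculin, went the other way and was at 8.35, 8.45 and 9.46 FPKM in shNC and 11.9, 13.6 and 11.3 FPKM in shMYT1.

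In DNA repair, replication and chromosome cohesion, 16 of 22 members were lower past the threshold, 0 higher and 6 not past it, with a median log2 difference of -0.25. All 22 members were below 0. PRKDC, the catalytic subunit of DNA-dependent protein kinase that acts in end joining, was at 59.0, 56.8 and 54.4 FPKM in the 3 shNC libraries and 48.2, 48.5 and 48.2 FPKM in the 3 shMYT1 libraries. RAD21, the kleisin subunit of cohesin, was at 57.3, 58.4 and 54.2 FPKM in shNC and 48.4, 51.7 and 45.8 FPKM in shMYT1, a call lost in 5 of 16 alternative fits. The shMYT1 values of both genes were below all control values. PBK, a mitotic kinase, was at 50.5, 48.4 and 46.2 FPKM in shNC and 34.7, 38.2 and 35.2 FPKM in shMYT1, a larger difference of -0.41 (SE 0.049). UBE2V2, a partner of the ubiquitin-conjugating enzyme of postreplication repair, averaged 20.1 FPKM in the controls and 16.1 in shMYT1. RRM2B, a p53-inducible subunit of ribonucleotide reductase, was the lowest of the list, with 5.54 FPKM in the controls and 3.50 in shMYT1. TTI2, a co-chaperone of the large repair kinases, was the nearest to 0 and averaged 3.27 FPKM in the controls and 3.20 in shMYT1.

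For centrosome and cilium genes, 2 of 6 members were lower past the threshold, 0 higher and 4 not past it, with a median log2 difference of -0.14. PCM1, the scaffold of centriolar satellites, was at 25.1, 24.8 and 23.4 FPKM in shNC and 23.8, 24.4 and 23.0 FPKM in shMYT1. MTUS1, a microtubule-associated protein, was at 21.6, 21.3 and 20.6 FPKM in shNC and 21.9, 21.97 and 20.9 FPKM in shMYT1. In both genes the groups overlapped. HOOK3, a dynein adaptor, averaged 8.19 FPKM in the controls and 6.81 in shMYT1, and DCTN6, a dynactin subunit, 12.8 FPKM in the controls and 10.1 in shMYT1.

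Translation, RNA binding and ribosome biogenesis held the most abundant members. There 12 of 19 members were lower past the threshold, 0 higher and 7 not past it, with a median log2 difference of -0.22. RPS20, a protein of the small ribosomal subunit and the highest of all members by mean level, was at 297, 296 and 304 FPKM in the 3 shNC libraries and 263, 269 and 251 FPKM in the 3 shMYT1 libraries. EIF4EBP1, the repressor that holds the cap-binding factor eIF4E, was at 214, 226 and 249 FPKM in shNC and 188, 190.4 and 204 FPKM in shMYT1. PABPC1, the main cytoplasmic poly(A)-binding protein, was at 207, 206 and 206 FPKM in shNC and 190.3, 186 and 187 FPKM in shMYT1. In each of these genes the groups did not overlap, with differences between -0.24 and -0.14. The call for EIF4EBP1 was lost in 5 of 16 alternative fits. RPS20 has 16 and PABPC1 13 pseudogenes named after them, so their values are uncertain. EIF3E, a subunit of initiation factor eIF3, was at 60.8, 62.0 and 56.8 FPKM in shNC and 59.1, 61.8 and 55.9 FPKM in shMYT1, with overlapping groups and no call. EIF3H, another eIF3 subunit, singled out after its values were seen, averaged 31.1 FPKM in the controls and 30.5 in shMYT1 and did not pass either. MTERF3, a regulator of mitochondrial gene expression, was the lowest of the list with 16.6 FPKM in the controls and 12.5 in shMYT1. TRMT12, a tRNA-modifying enzyme, was the highest of the list, with 5.42 FPKM in the controls and 5.83 in shMYT1.

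Ubiquitin, protein folding and endoplasmic reticulum (ER)-associated degradation was the list with the largest share of lower calls. Here 17 of 19 members were lower past the threshold, 0 higher and 2 not past it, with a median log2 difference of -0.28. TRAM1, which sits beside the translocon of the ER, was at 25.1, 25.6 and 24.3 FPKM in shNC and 19.9, 20.9 and 19.2 FPKM in shMYT1. RNF139, a ligase of the ER membrane, averaged 15.4 FPKM in the controls and 12.9 in shMYT1 and EMC2, of the complex that inserts membrane proteins, 13.6 FPKM in the controls and 10.99 in shMYT1. UBXN2B, an adaptor of the ATPase p97, was the lowest at 9.37 FPKM in the controls and 6.54 in shMYT1. The deubiquitinase gene OTUD6B was nearest to 0, with 6.74 FPKM in the controls and 6.04 in shMYT1.

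In membrane traffic and ESCRT, 13 of 19 members were lower past the threshold, 1 higher and 5 not past it, with a median log2 difference of -0.20. CHMP7, an ESCRT-III protein that seals the nuclear envelope, was at 12.9, 14.03 and 13.8 FPKM in the 3 shNC libraries and 8.39, 9.11 and 8.73 FPKM in the 3 shMYT1 libraries. No shMYT1 value came near the controls, and the difference was -0.58 (SE 0.045). SDCBP, which encodes the exosome adaptor syntenin, was at 35.1, 35.5 and 35.6 FPKM in shNC and 24.4, 25.7 and 25.2 FPKM in shMYT1. LAPTM4B, a late endosomal membrane protein and the fifth of all members by level, was at 109.7, 112 and 111 FPKM in shNC and 93.5, 96.5 and 95.9 FPKM in shMYT1. GOLGA7, a partner of the enzyme that palmitoylates Ras, averaged 44.9 FPKM in the controls and 40.4 in shMYT1, a call lost in 6 of 16 alternative fits. ASAP1, an Arf GTPase-activating protein, was at 35.7, 34.2 and 33.4 FPKM in shNC and 33.7, 33.8 and 33.8 FPKM in shMYT1, with groups that overlapped. SYBU, a kinesin adaptor of axonal transport, averaged 4.44 FPKM in the controls and 5.12 in shMYT1 and was higher past the threshold, a call lost in 9 of 16 alternative fits.

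For the proton pump and lysosome, 4 of 7 members were lower past the threshold, 0 higher and 3 not past it, with a median log2 difference of -0.18. The 3 vacuolar ATPase subunits of the list, which acidify lysosomes, had groups that did not overlap. ATP6V1C1 averaged 10.2 FPKM in the controls and 8.41 in shMYT1 and passed the threshold, a call lost in 5 of 16 alternative fits. ATP6V1B2 averaged 26.0 FPKM in the controls and 23.6 in shMYT1 and ATP6V1H 8.10 FPKM in the controls and 7.06 in shMYT1, and neither passed. ENTPD4, a nucleotide-hydrolysing enzyme of internal membranes, averaged 17.2 FPKM in the controls and 14.5 in shMYT1. HGSNAT, an enzyme of heparan sulfate breakdown, averaged 6.32 FPKM in the controls and 5.00 in shMYT1. CTSB, the protease cathepsin B, was at 37.7, 38.3 and 38.8 FPKM in shNC and 38.9, 39.1 and 42.9 FPKM in shMYT1 and was the one member of the list above 0, without passing.

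Among mitochondrial and redox genes, 12 of 17 members were lower past the threshold, 0 higher and 5 not past it, with a median log2 difference of -0.28. VDAC3, a channel of the outer mitochondrial membrane, was at 54.4, 52.6 and 53.7 FPKM in shNC and 43.9, 46.1 and 42.0 FPKM in shMYT1. GSR, which encodes glutathione reductase, was at 40.2, 40.2 and 40.0 FPKM in shNC and 31.1, 32.2 and 32.8 FPKM in shMYT1. DECR1, an enzyme of unsaturated fatty acid oxidation, averaged 22.9 FPKM in the controls and 17.5 in shMYT1. GDAP1, an outer-membrane protein linked to peripheral neuropathy, was at 20.6, 19.2 and 19.8 FPKM in shNC and 13.4, 13.5 and 14.8 FPKM in shMYT1. LACTB2, a mitochondrial endoribonuclease, and MICU3, a regulator of the mitochondrial calcium uniporter, were among the 10 most negative members, at 5.50 to 3.46 FPKM and 6.18 to 3.97 FPKM. SLC25A37, the iron importer mitoferrin, did not pass, with 10.97 FPKM in the controls and 11.3 in shMYT1.

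For kinases, phosphatases and adaptors, 11 of 18 members were lower past the threshold, 0 higher and 7 not past it, with a median log2 difference of -0.17. YWHAZ, the 14-3-3 zeta adaptor, was at 92.3, 94.3 and 89.0 FPKM in shNC and 81.9, 85.8 and 79.8 FPKM in shMYT1, a call lost in 6 of 16 alternative fits. LYN, a Src-family kinase, was at 23.0, 22.9 and 22.3 FPKM in shNC and 18.4, 17.8 and 17.8 FPKM in shMYT1. DUSP4, a phosphatase of MAP kinases, averaged 24.5 FPKM in the controls and 19.9 in shMYT1. EFR3A, a plasma membrane scaffold of a lipid kinase, was the lowest of the list, at 14.5, 14.3 and 13.6 FPKM in shNC and 10.2, 9.14 and 9.81 FPKM in shMYT1. The growth factor receptor gene FGFR1 was at 15.5, 15.8 and 16.8 FPKM in shNC and 16.0, 15.8 and 17.1 FPKM in shMYT1, and PKIA, an inhibitor of protein kinase A, at 20.4, 21.1 and 19.96 FPKM in shNC and 20.9, 20.7 and 19.96 FPKM in shMYT1. In these last genes the groups overlapped.

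Neuronal genes had the most negative median of the lists, close to the -0.28 of the ubiquitin and mitochondrial lists. In the neuronal list 8 of 10 members were lower past the threshold, 1 higher and 1 not past it, with a median log2 difference of -0.29. GFRA2, the neurturin co-receptor of RET, was at 15.1, 13.5 and 14.6 FPKM in the 3 shNC libraries and 8.66, 8.30 and 8.84 FPKM in the 3 shMYT1 libraries. It was the second most negative of all members, 40.4% lower in the means, with a log2 difference of -0.68 (SE 0.049). DPYSL2, the collapsin response mediator CRMP2 of growing axons, was at 55.4, 52.6 and 51.6 FPKM in shNC and 39.9, 40.2 and 40.6 FPKM in shMYT1. PNMA2, a neuronal paraneoplastic antigen, was at 32.3, 31.8 and 31.7 FPKM in shNC and 23.9, 23.5 and 23.4 FPKM in shMYT1. TUSC3, a subunit of the oligosaccharyltransferase, was at 26.3, 26.3 and 25.1 FPKM in shNC and 21.8, 21.9 and 21.9 FPKM in shMYT1. The shMYT1 values of these genes lay close together and below every control. LZTS1, a leucine zipper protein of synapses, was higher in shMYT1, with a log2 difference of 0.49. The list holds 31 symbols, and the 21 others were not members. Neurofilament and stathmin genes of this stretch were set aside by symbol and do not enter the median. Their log2 differences were -0.18 for NEFM, 0.04 for NEFL, -0.09 for STMN2 and -1.31 for STMN4.

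In lipid, glycan and small-molecule enzymes, 16 of 20 members were lower past the threshold, 0 higher and 4 not past it, with a median log2 difference of -0.26. PTDSS1, which makes phosphatidylserine, was at 26.6, 26.5 and 27.4 FPKM in shNC and 19.2, 19.9 and 19.6 FPKM in shMYT1. AGPAT5, an acyltransferase of phosphatidic acid synthesis, was at 34.4, 31.6 and 31.9 FPKM in shNC and 24.7, 24.4 and 23.3 FPKM in shMYT1. GGH, the hydrolase that trims folate polyglutamates, averaged 23.6 FPKM in the controls and 17.3 in shMYT1. These genes had log2 differences of -0.44, -0.42 and -0.43. SLC39A14, a transporter of zinc, manganese and iron, averaged 33.0 FPKM in the controls and 27.3 in shMYT1. NUDT18, which hydrolyses oxidised nucleotides, was the least different, with 3.23 FPKM in the controls and 3.15 in shMYT1.

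Secreted, matrix and cell-surface genes were the most mixed, with 7 of 12 below 0. There 6 of 12 members were lower past the threshold, 2 higher and 4 not past it, with a median log2 difference of -0.19. SFRP1, a secreted antagonist of Wnt and the fourth of all members by level, was at 108, 106 and 106 FPKM in shNC and 111, 111 and 109.5 FPKM in shMYT1. Every shMYT1 value lay slightly above the controls, and the difference did not pass. ENPP2, which encodes the lysophosphatidic acid producing enzyme autotaxin, was at 41.3, 42.2 and 40.2 FPKM in shNC and 34.1, 35.6 and 34.8 FPKM in shMYT1. CTHRC1, a secreted glycoprotein of remodelling tissue, was at 18.7, 19.96 and 19.2 FPKM in shNC and 13.7, 11.8 and 12.4 FPKM in shMYT1. SCARA3, a scavenger receptor-like protein, averaged 21.1 FPKM in the controls and 16.1 in shMYT1 and ADAM9, a membrane metalloprotease, 16.8 FPKM in the controls and 15.2 in shMYT1. The latter did not pass. Matrix genes are also among the fibroblast markers whose summed level was lower in shMYT1 (113 to 116 FPKM, against 161 to 165 FPKM in shNC). Most of that difference lay in LUM, a collagen-binding proteoglycan gene, at 97.7 FPKM in shNC and 54.6 FPKM in shMYT1, while the collagen gene COL3A1 was higher past the threshold (6.51 and 7.80 FPKM). Their part in these values was not tested.

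Of the 10 most abundant members, 8 were lower past the threshold, beside 67.8% of all members and 12.3% of all tested genes. The exceptions were SFRP1 and EIF3E. SARAF, which slows store-operated calcium entry, was at 68.9, 67.8 and 65.6 FPKM in shNC and 53.9, 55.6 and 55.2 FPKM in shMYT1, with a log2 difference of -0.29 (SE 0.029).

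The most negative members were FAM110B, GFRA2, ANKRD46, SNAI2, CHMP7, CTHRC1, HMBOX1, RRM2B, LACTB2 and MICU3. Their log2 differences lay between -0.92 and -0.53. FAM110B (chromosome 8, 57994509 to 58204279, plus strand, hg38), a centrosome-associated protein, was at 4.37, 4.66 and 4.33 FPKM in the 3 shNC libraries and 1.86, 1.66 and 2.12 FPKM in the 3 shMYT1 libraries. Its shMYT1 mean was 57.8% below the shNC mean, and its exons overlap a gene on the opposite strand. GFRA2 lies at 21690403 to 21812357, minus strand, and CHMP7 at 23243637 to 23262000, plus strand. SNAI2, at 48917604 to 48921740, minus strand, lies on the long arm near the centromere, and CTHRC1 at 103371515 to 103382997, plus strand. ANKRD46 was at 5.65, 5.82 and 5.52 FPKM in shNC and 3.15, 4.03 and 3.13 FPKM in shMYT1, with shMYT1 replicate 2 above the other two. In these 10 genes every shMYT1 value was below every shNC value, as in 201 of the 258 members and 21.8% of all tested genes. The 10 were picked as the most negative of members chosen for their fall, so this separation describes the choice.

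Few members were higher in shMYT1. LZTS1 (chromosome 8, 20246165 to 20303963, minus strand, hg38) was at 15.7, 16.7 and 17.7 FPKM in the 3 shNC libraries and 23.7, 23.1 and 24.5 FPKM in the 3 shMYT1 libraries, a log2 difference of 0.49 (SE 0.048). STC1, the secreted hormone stanniocalcin, was at 3.19, 3.39 and 3.36 FPKM in shNC and 5.31, 4.53 and 4.86 FPKM in shMYT1. MSC had a log2 difference of 0.44. In all 3 the groups did not overlap, and the shMYT1 mean was 42.5%, 48.0% and 40.3% above the shNC mean. LOXL2, a lysyl oxidase that crosslinks collagen, was at 7.38, 7.64 and 8.14 FPKM in shNC and 9.81, 9.85 and 10.7 FPKM in shMYT1. HR, a nuclear receptor corepressor, was at 11.2, 10.7 and 11.03 FPKM in shNC and 11.8, 12.1 and 12.1 FPKM in shMYT1, the smallest difference among the 6 that passed, and lost its call in 9 of 16 alternative fits. TNFRSF10B, a death receptor for TRAIL, averaged 2.88 FPKM in the controls and 3.50 in shMYT1 and did not pass. PRAG1, a pseudokinase gene, KLF10, a zinc-finger factor induced by TGF-beta, and BMP1, the procollagen C-proteinase, had log2 differences of 0.14, 0.11 and 0.10 and did not pass either. LOXL2, MSC, SYBU, TNFRSF10B and BMP1 share exon bases with other genes, so part of their reads may belong to those.

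**Figure D5:**
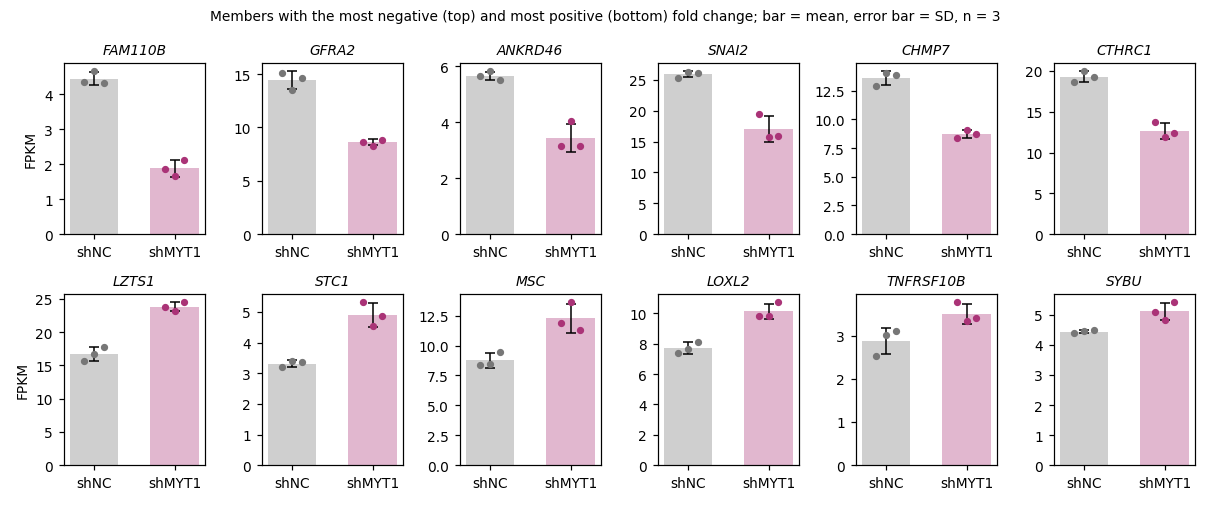
FPKM of the 6 most negative (top) and the 6 most positive (bottom) members, in shNC (grey) and shMYT1 (purple). Bars are means, error bars SD over 3 libraries, and points single libraries, each panel with its own axis from 0. FAM110B goes from 4.46 to 1.88 FPKM and LZTS1 from 16.7 to 23.8 FPKM, and the groups are apart in all 12 panels. The genes were picked for the size of their differences.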

How the data were processed

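Gene-level RNA-seq values of 6 libraries, 3 shNC and 3 shMYT1, were used as the authors deposited them, in 1 table of FPKM. Reads were processed with HISAT2 2.0.5 and featureCounts 1.5.0-p3 on hg38, per the submitters' processing notes. No source read here names their annotation, their filters or whether strand was used. Of 32434 gene IDs, 32301 (99.59%) were found in GENCODE 29, which gave type, position and exon length. FPKM times exon length gave whole fragments, within 0.01 in all 6 libraries, for 30810 of these (95.4%). These fragments gave depths of 18160000 to 21680000 fragments.

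Groups came from the sample titles. Genes averaging at least 1 FPKM (14106) were compared as log2(FPKM + 1) with limma 3.58.1 (trend and moderated variance, R 4.3.3), shMYT1 against shNC, with no block, and p-values were adjusted by Benjamini-Hochberg over all of them at 0.05. The script was tested on simulated data with 50 genes changed at each size and a spread set from the shNC libraries. It recovered 31 at 1.25-fold, 40 at 1.5-fold, 47 at 2-fold and 50 at 4-fold. Of 180 calls, 12 were false. Small differences can thus go uncalled. A fold change on the log2(FPKM + 1) scale understates that of low genes. The members, the role lists and the limits were chosen with earlier results of these data known, so the members' calls are given as a description. Named are MYT1, the 10 members of highest level, the 10 most negative and the 10 most positive, in each role list the 4 highest by level and the most negative and most positive, the 3 genes on either side of each limit, and the 3 most abundant genes of other types. Not every gene so named is described singly. The alternatives were pseudocounts, filters, scalings, voom on recovered fragments, equal depth by thinning, other limits, a replicate block and leaving out each library. Replicate numbers were taken from the labels and do not state a shared culture or day.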

Additional observations from a re-analysis of the deposited data

How the results depend on the processing

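Under 16 alternative fits, no result reversed. Leaving out 1 library at a time gave 1020 to 1469 lower and 1018 to 1579 higher calls over all tested genes (1737 and 1683 with all 6), 137 to 167 lower and 4 to 5 higher calls among the members (175 and 6), and a members' median of -0.24 to -0.22. It gave 7 to 13 lower calls among protein-coding genes at 1 to under 3 FPKM (16), 12 to 19 among other gene types (21) and 8 to 11 beyond the position limit (14). At an adjusted p under 0.01 the lower calls were 733 over all genes (761 higher), 112 among the members, 5 at 1 to under 3 FPKM, 9 among other types and 3 beyond the position limit. With no filter on low values the last 3 classes gave 7, 10 and 8, in a fit that tests more genes, and a minimum of 3 FPKM left 10 among other types, with fewer tested. With voom on the recovered fragments the lower calls were 25 at 1 to under 3 FPKM and 25 beyond the position limit. The common FPKM total gave 23 beyond the position limit; for these the cause was not tested. The members' median was -0.26 under voom and under the common FPKM total. The short arm's was -0.26 under the common FPKM total, and the long arm's -0.28 under both and with a pseudocount of 0.1. The 13 role lists' and the unlisted members' medians stayed between -0.34 and -0.1 in 224 refits. A fit with the replicate number as a block gave 182 lower and 4 higher calls among the members. Same-numbered libraries of the 2 groups deviated together at correlations of only 0.03, 0.01 and 0.04 over genes, although each of the 6 correlated best with its own number, so the numbers were not taken to pair the libraries. Of 97 named genes, 11 lost their call under at least 1 alternative, HR and SYBU most often. The precision of single genes is limited by the 3 libraries a group and by depth, with a median standard error of 0.046 among the members and as few as 75 fragments behind a value.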
